A study of Mus musculus with 16 samples.

Results

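The ERBB receptors and their ligands were followed in sorted mouse cardiomyocytes by all probes of the microarray whose gene name was Egfr, Erbb2, Erbb3, Erbb4, Nrg1, Nrg2, Nrg4 or Hbegf. These 8 genes, of 31982 gene names on the microarray, were represented by 14 probes of 55681. RNA came from CD1 wild-type hearts of embryonic day 15.5 (E15.5) and of postnatal day 2 (P2), and each stage was split by flow sorting into cells with low and cells with high surface integrin α6 (ITGA6, CD49f). At E15.5 only cells positive for ERBB-2 protein were sorted, and EL denotes the ITGA6-low and EH the ITGA6-high fraction of them. At P2 non-myocytes were first depleted magnetically, without a sort for ERBB-2, and PL denotes the fraction low in ITGA6, PH the fraction high in it. Each group held 4 samples from separate experiments, numbered 2, 3, 6 and 8 at E15.5 and 2, 3, 4 and 5 at P2. An E15.5 sample pooled 20 to 30 hearts and a P2 sample 15 hearts, with at least 50000 sorted cells per fraction and 10 ng of RNA for amplification, so the spread is that between pools and not between animals.

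The ERBB family of receptor tyrosine kinases signals as pairs of receptors. Neuregulins bind ERBB-3 and ERBB-4, ERBB-2 has no known ligand and acts as the partner of the others, and EGFR binds ligands of the EGF family. HB-EGF is a ligand of both EGFR and ERBB-4. In the embryonic heart, neuregulin-1 is known as a signal from the endocardium to ERBB-2 and ERBB-4 of the myocardium that is required for trabeculation. ERBB-3 is known from the endocardial cushions, and signals of the family run through the MAPK and PI3K cascades to targets such as the ETS factors of the Etv group and the Dusp phosphatases.

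The probes of the microarray design are placed on the mouse build mm9. The Erbb2 probe lay at chr11:98298103-98298162, the brighter Erbb4 probe at chr1:68078805-68078864 on the minus strand, and the 3 Nrg4 probes on chromosome 9. Nrg2 had 2 probes and Hbegf 1 probe, which are not placed here. Exons were not assigned, because the annotation used here belongs to another build. The following sequences, 60 bases each, are those of probes for 2 receptors and 1 ligand that were dim on these microarrays. They give the bases that each probe measured, and their place within the transcript was not assigned. Each held at least 1 reading frame without an internal stop codon, and the capitals mark the stop codon that ends the Erbb3 and the Nrg1 probe. They lie at chr11:16783556-16783615 (Egfr), chr10:128006424-128006483 (Erbb3, minus strand) and chr8:32928500-32928559 (Nrg1, minus strand).
Egfr A_55_P1956863: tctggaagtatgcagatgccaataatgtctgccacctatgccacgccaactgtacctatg
Erbb3 A_55_P2119897: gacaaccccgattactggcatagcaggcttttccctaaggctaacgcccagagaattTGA
Nrg1 A_55_P1985433: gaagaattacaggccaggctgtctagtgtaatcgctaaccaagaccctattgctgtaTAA

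Signals are given as quantile-normalized processed signals on a linear scale, which have no unit and are compared only within a probe. A probe was called detected in a group when the scanner software marked it as well above background on all 4 microarrays. Throughout the 16 microarrays, 3 of the 14 probes stood well above background, namely Erbb2, the brighter Erbb4 probe A_55_P2119892 and Hbegf. One more, the Nrg2 probe A_55_P2094034, was detected in EH and PH and on 0 microarrays of EL and PL. The probes of Nrg1, of Nrg2 (A_55_P1991821) and of Nrg4 (A_55_P2115330) were well above background on 3, 1 and 1 microarrays of EH and nowhere else. The other 7 probes, all 3 of Egfr, the probe of Erbb3, the dimmer Erbb4 probe and 2 of Nrg4, were not well above background on any microarray. The share of all probes well above background ranged from 35.7% in PL to 46.5% in EH sample 2, the highest of the 16.

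**Figure D1:**
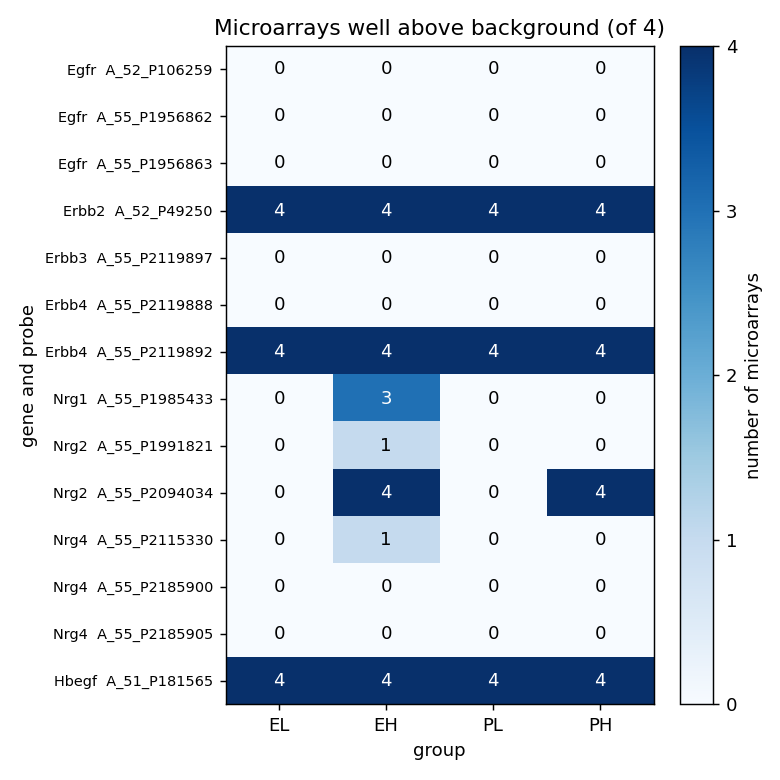
Number of microarrays, of 4 per group, on which each of the 14 probes was well above background, with genes and probes as rows and groups as columns. Erbb2, Hbegf and 1 Erbb4 probe reach 4 in every group, whereas Nrg2 A_55_P2094034 reaches 4 in EH and PH and 0 in EL and PL.

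All 8 general cardiomyocyte markers, among them Tnnt2 and Nkx2-5, were detected in all 4 groups. Of the 7 atrial markers 6 were higher in EH than in EL and 7 were higher in PH than in PL, and all 5 ventricular markers were lower in the ITGA6-high fraction at both stages. Among 31982 gene names, each taken at its brightest probe, the share past the test at E15.5 was 5.90% for higher and 4.82% for lower signals in EH, and at P2 it was 8.08% for higher and 6.74% for lower signals in PH. Itga6, the gene of the sort antigen, measured on probe A_55_P2015670, was 11872 ± 1501 in EH against 625 ± 119 in EL, and at P2 6450 ± 542 in PH against 285 ± 46.1 in PL (mean ± SD, n = 4). Its other probe A_55_P1958840 was 3441 in EH against 2289 in EL, and at P2 9370 in PH against 8685 in PL, without passing the test at either stage (limma, adjusted p = 0.0718 and 0.869).

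Erbb2, the receptor used for the E15.5 sort, was detected in every group. The signals were 711.8, 723.3, 697.8 and 732.2 in EL samples 2, 3, 6 and 8, and 900.6, 917.7, 771.6 and 866.2 in EH. In PL they were 354.6, 407.3, 323.7 and 323.9 for samples 2, 3, 4 and 5, and in PH 551.7, 621.9, 576.4 and 465.3. Both ITGA6-high groups thus lay above the ITGA6-low group of their stage without overlap, and both P2 groups lay below both E15.5 groups. At P2 the ITGA6-high cells had 1.57-fold more Erbb2 signal (log2 fold-change 0.65 ± 0.10 SE, limma, adjusted p = 0.000342). At E15.5 the 1.20-fold difference did not pass the test (log2 fold-change 0.27 ± 0.10 SE, adjusted p = 0.131), although the groups did not overlap (two-sided exact permutation test, p = 0.0286, the smallest that 4 against 4 samples allow). That permutation ignored the sample numbers, which EL and EH share, though the labels do not say that equal numbers mean the same pool. With the sample number as a block the difference did not pass (limma, adjusted p = 0.0549). The difference passed in a fit of EL and EH alone (adjusted p = 0.0438) and with another background correction (normexp, adjusted p = 0.0333). The test of the stage difference itself did not pass either (0.38 ± 0.14 SE, adjusted p = 0.205). The probe was spotted 10 times per microarray, and its spots on 1 microarray varied by 2.04% to 6.33% (coefficient of variation).

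Erbb4, the receptor with a kinase of its own that binds neuregulins directly, rose in the ITGA6-high fraction at both stages. On probe A_55_P2119892 the signals were 677.4, 590.0, 578.1 and 535.1 in EL and 1105, 1075, 929.2 and 885.9 in EH. They were 600.9, 593.1, 629.0 and 577.5 in PL and 1745, 1906, 1992 and 1835 in PH. The lowest ITGA6-high sample lay above the highest ITGA6-low sample at each stage, and all PH samples lay above all EH samples. EH exceeded EL 1.68-fold (0.75 ± 0.09 SE, limma, adjusted p = 7.63e-05) and PH exceeded PL 3.11-fold (1.64 ± 0.09 SE, adjusted p = 2.66e-08). The difference was 1.86-fold larger at P2 (interaction 0.89 ± 0.12 SE, adjusted p = 0.000998). Chamber markers also separated the fractions more at P2. The interaction passed the test as positive for 3 of the 7 atrial markers and as negative for 3 of the 5 ventricular markers. Whether this bears on the Erbb4 value was not tested. With the slide as a block, the E15.5 difference of Erbb4 was 0.73 (adjusted p = 0.00023). Within slide 1, with 2 EL and 3 EH microarrays, it was 0.76 and did not pass the test (adjusted p = 0.127). Within slide 3, with 2 EL and 1 EH microarrays, it was 0.67, and 0 of all 55680 probes passed the test there.

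The other Erbb4 probe, A_55_P2119888, was not well above background on any microarray. Its mean signal was 4.48 (EL), 5.15 (EH), 4.15 (PL) and, the highest, 11.96 (PH). It passed the test in PH against PL (limma, adjusted p = 0.0033) and in PH against EH (adjusted p = 0.0107). Since neither side was well above background, no fold is given. The Erbb4 values above therefore rest on a single probe.

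**Figure D2:**
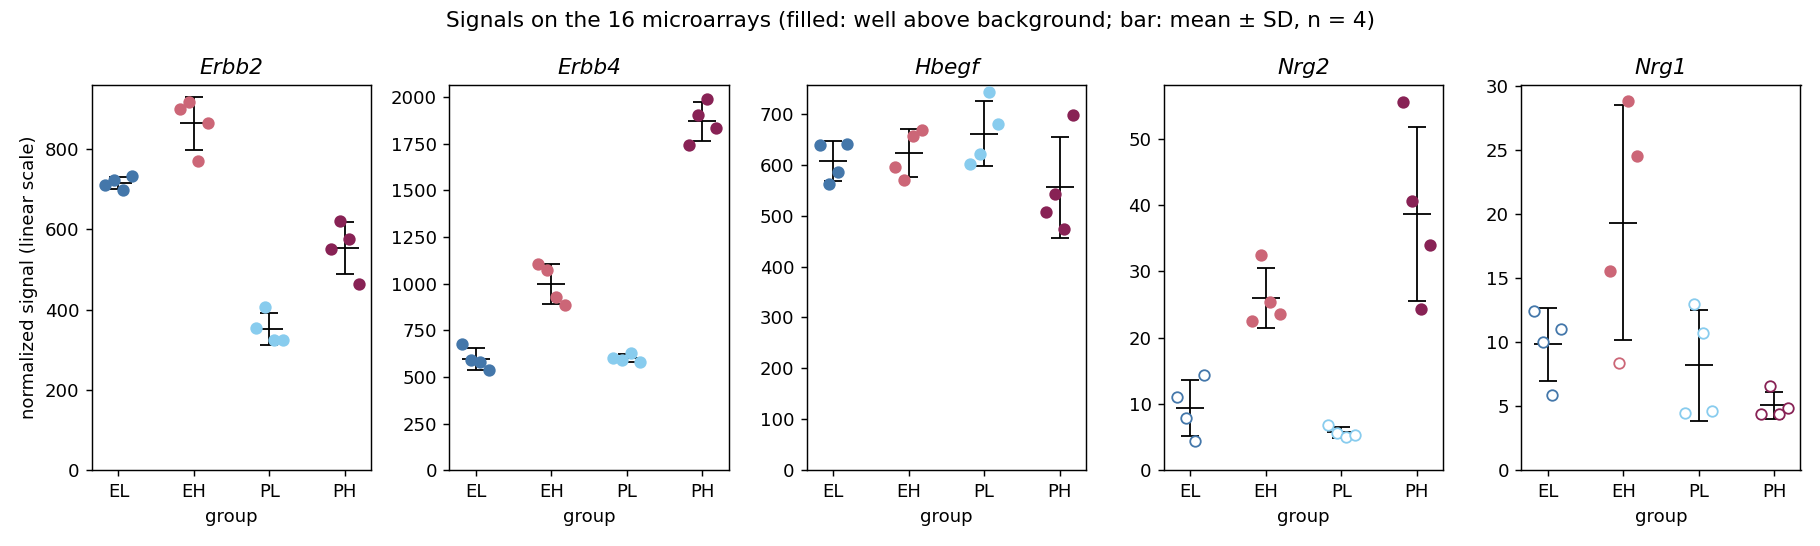
Normalized signal on a linear axis from 0 for each of the 16 microarrays by group, for 1 probe each of Erbb2, Erbb4, Hbegf, Nrg2 and Nrg1; filled points are well above background, and bars give mean ± SD of 4. Erbb4 sits at 1745 to 1992 in PH and at most at 1105 elsewhere, and Nrg2 has filled points in EH and PH alone.

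Erbb3, a neuregulin receptor whose own kinase is impaired, and Egfr were not well above background on any microarray. The Erbb3 mean was highest in EL at 9.55, followed by PH at 6.95, PL at 5.16 and EH at 5.07, and no comparison passed the test. For Egfr, the probe A_52_P106259 had a mean of 12.7 and 8.85 at E15.5 (EL, EH) and of 3.75 and 3.81 at P2 (PL, PH). Its P2 signals were lower than at E15.5 in both fractions (limma, adjusted p = 0.000125 for PL against EL and 0.00515 for PH against EH), but at most 3 of its spots on any microarray were well above background, so no fold is given. The other 2 Egfr probes, including the one whose sequence is shown, passed no test. These values do not show that Erbb3 or Egfr RNA was missing, only that it was not distinguished from background.

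Among the ligands, Nrg2, a neuregulin that binds ERBB-3 and ERBB-4, was detected in the ITGA6-high fractions. On probe A_55_P2094034 the signals were 11.0, 7.87, 4.47 and 14.4 in EL and 22.5, 32.5, 25.4 and 23.6 in EH. They were 6.79, 5.68, 5.002 and 5.36 in PL and 55.6, 40.65, 24.3 and 33.98 in PH. Neither pair of groups overlapped. Since EL and PL were not well above background, the fold-change is a lower bound, computed against the lowest signal well above background on each dim microarray or the probe's own signal where that was higher. EH was at least 1.58-fold higher than EL (means 26.0 and 9.44, limma, adjusted p = 0.00573) and PH at least 1.90-fold higher than PL (means 38.6 and 5.71, adjusted p = 4.07e-05). These bounds hold for the main processing only. Normexp was run with an offset of 50 added to the signals, which shrinks the log2 values of dim probes. With normexp the fitted log2 value in EH against EL was 0.32 (limma, adjusted p = 0.0148), below the bound but not a like measure of it. The lowest log2 value of PH against PL under an alternative was 0.66, also below its bound. The stage difference did not pass the test (adjusted p = 0.278), and EH and PH overlapped. With the slide as a block the E15.5 comparison kept an adjusted p of 0.00892. Within slide 1 the fitted value, 1.04 on the log2 scale against 1.58 over all samples, kept its direction but was not past the test (adjusted p = 0.131), and within slide 3, with 1 EH microarray, 0 of all 55680 probes passed it. The second Nrg2 probe, A_55_P1991821, was well above background on EH sample 2 alone and passed no test, so that the 2 probes of the gene gave different detection.

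Nrg1 was seen in EH alone. The signals were 12.4, 9.98, 5.87 and 11.0 in EL and 15.6, 8.40, 28.8 and 24.55 in EH, where samples 2, 6 and 8 were well above background and sample 3 was not. They were 4.44, 13.0, 10.74 and 4.59 in PL and 4.38, 6.59, 4.38 and 4.87 in PH. EH and EL overlapped, and the lower bound of 1.07-fold was not past the test (means 19.3 and 9.83, limma, adjusted p = 0.309; with normexp, adjusted p = 0.0318). PH against EH passed (means 5.06 and 19.3, adjusted p = 0.00834) but no longer did so with normexp (adjusted p = 0.0589) or with dim signals set to a floor (adjusted p = 0.503), and its bound is below 1, so no fold is given.

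Markers of other cell types were set beside the Nrg1 values, first those of endothelial and endocardial cells. The summed signal of the 10 markers was 4942, 4145, 10002 and 9630 in EH samples 2, 3, 6 and 8, while EL ranged from 2048 to 2280, PL from 877 to 2243 and PH from 1541 to 2373. EH samples 6 and 8 were the highest and sample 3 the lowest in both Nrg1 and the summed markers. The order of the EH samples was not particular to this list. The epicardial markers ranked them as Nrg1 did, with sums of 965, 486, 2207 and 1487 in samples 2, 3, 6 and 8, and sample 3 was also the lowest and sample 6 the highest for the leukocyte, erythroid and fibroblast lists. In the smooth muscle and epithelial lists sample 3 was the highest and sample 6 the lowest. In EH 8 of the 10 markers were detected, against 3 in each other group, and 7 were higher in EH than in EL. The probe of Egfl7 contributed most to the EH sum, which does not rank the genes by abundance. Cdh5, Tie1 and Emcn were detected in EH and well above background on 0 microarrays of EL, PL and PH. The E15.5 gate on ERBB-2 protein was set to select cardiomyocytes. Whether endothelial or endocardial cells had a part in the EH values of any member was not tested. In such bulk samples, fewer cells of a type and less RNA per cell cannot be told apart. At P2, 1 of the 10 markers passed the test, Nfatc1, which was higher in PH (179) than in PL (96.3, limma, adjusted p = 0.0116), and Egfl7 was 978 in PH and 542 in PL (adjusted p = 0.0506). Kdr was detected in both P2 fractions.

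**Figure D3:**
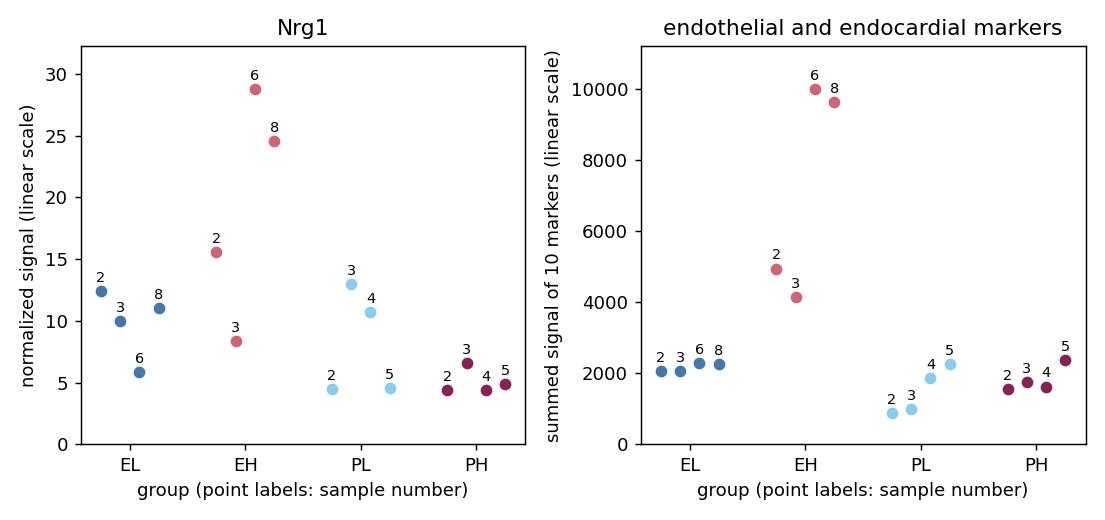
Nrg1 signal and summed signal of 10 endothelial and endocardial markers, on linear axes from 0, for each microarray by group, with the sample number above each point. EH samples 6 and 8 are the highest points of both panels, at 28.8 and 24.55 for Nrg1 and 10002 and 9630 for the markers.

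Other marker lists were also compared between fractions. Of 6 leukocyte markers 2 were higher in EH than in EL. The list had a summed median of 4847 in EH and 3327 in EL, with the probe of Itgam contributing most to the sum. At P2 the summed median of this list, 8230 for PL against 3443 for PH, rested mostly on Itgam. That probe alone passed the test (PL mean 7988, PH mean 3134, limma, adjusted p = 0.00208). Cd68 (PL mean 200, PH mean 135) and Csf1r (PL mean 124, PH mean 131) did not pass. Ptprc, Lyz2 and Cd14 were well above background on 0 microarrays of either P2 group. The P2 sums therefore do not show a difference of the leukocyte list as a whole. Of 6 smooth muscle and pericyte markers 3 were higher and 1 lower in EH, and 1 higher and 2 lower in PH. They summed to medians of 45449 (EL), 28215 (EH), 31207 (PL) and 6467 (PH), with the probe of Acta2 contributing most to the sum. Acta2 was 28868 in PL and 4134 in PH, while Tagln was 241 in PL and 2031 in PH. The 5 erythroid markers passed no test between fractions. They summed to medians of 4256, 12486, 565 and 307 in the same order, with the probe of Hba-a1 contributing most to the sum. Of the 5 epithelial markers 1 was lower in EH and 1 higher in PH, Krt19 with 61.1 against 10.0 in PL, a group not well above background. The 5 markers summed to 3011, 1934, 576 and 771, with the probe of Krt18 contributing most to the sum. The list of neural crest, Schwann and melanocyte markers summed to a median of 7257 in PH and 691 in PL, nearly all of it Mlana with a mean of 7102 in PH and 93.3 in PL. Dct was 414 in PL and 20.0 in PH, whereas Sox10, Foxd3 and Tyrp1 were well above background on 0 microarrays of every group. The 8 fibroblast markers summed to medians of 16742 (EL), 9756 (EH), 719 (PL) and 678 (PH), and the 6 epicardial markers to 2289, 1226, 80.7 and 125 in the same order. Of the fibroblast markers 0 passed the test in EH against EL, and 1 was lower in PH than in PL. Among the epicardial markers 1 was lower in EH and 1 higher in PH. Their part in the members' values was not tested.

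Hbegf, an EGF family ligand that is shed from the membrane, was detected in all groups. EL samples gave 638.4, 562.2, 585.9 and 641.4, and EH samples 595.9, 569.4, 656.4 and 668.9. PL samples gave 602.3, 620.8, 742.5 and 679.1, and PH samples 508.1, 542.2, 474.0 and 697.8. All groups overlapped, and PH sample 5 stood above the other PH samples. No comparison passed the test, with log2 fold-changes of 0.04 ± 0.11 SE for EH against EL (adjusted p = 0.944) and -0.26 ± 0.11 SE for PH against PL (limma, adjusted p = 0.195). Without PH sample 5, Hbegf was lower in PH than in PL (-0.38, adjusted p = 0.0175) and than in EH (-0.29, adjusted p = 0.0482). Nrg4, a ligand of ERBB-4, was well above background on a single microarray, EH sample 6, at 18.2 on probe A_55_P2115330, and none of its 3 probes passed a test.

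Counted over the 14 probes, EH showed higher signals than EL for 2 and lower signals for 0, where 4.27% of all 55681 probes were higher and 3.83% lower. In PH against PL, 4 were higher and 0 lower, against 6.15% and 5.41% of all probes, and 3 of the 4 were detected in PH. With the methods' limit of 3-fold on the fitted values added, 0 of 14 remained in EH against EL and 2 in PH against PL, Erbb4 with a measured 3.11-fold and Nrg2, whose bound of 1.90-fold does not reach the limit, where 1.17% and 1.73% of all probes were higher by that rule. The interaction was past the test for 1 probe, that of Erbb4, against 3.15% of all probes in either direction. The median log2 fold-change over the members was 0.29 in EH against EL and 0.14 in PH against PL, and over all probes -0.02 and -0.01. Since 10 of the 14 probes were detected in no group, these medians rest mostly on signals near background, and no shift of the members is read from them.

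The stages were sorted by different procedures and hybridised on different slides, so that stage, sort and slide cannot be told apart. In PL against EL 2 of the 14 probes were lower and 0 higher, against 10.0% and 9.70% of all probes. In PH against EH 2 were higher and 3 lower, against 9.12% and 8.37%. Of these calls, 1 in PL against EL and 2 in PH against EH concerned probes detected in a group compared. Erbb2 was 2.04-fold lower in PL than in EL (-1.03 ± 0.10 SE, limma, adjusted p = 3.65e-06) and 1.57-fold lower in PH than in EH (-0.65 ± 0.10 SE, adjusted p = 0.000268). As E15.5 cells were chosen for ERBB-2 protein and P2 cells were not, these Erbb2 values are a description. Erbb4 was 1.88-fold higher in PH than in EH (0.91 ± 0.09 SE, adjusted p = 5.70e-06), whereas PL and EL did not differ past the test (0.02 ± 0.09 SE, adjusted p = 0.982) and overlapped.

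**Figure D4:**
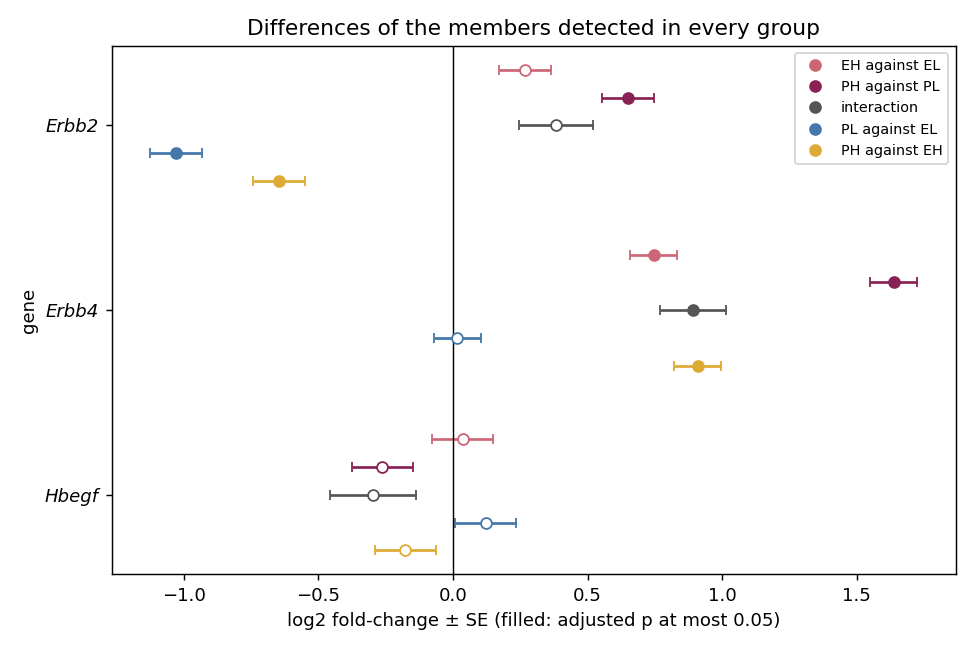
Log2 fold-change ± SE of Erbb2, Erbb4 and Hbegf in 5 comparisons, with filled points where the adjusted p was at most 0.05. Erbb4 in PH against PL is the point farthest to the right at 1.64, Erbb2 lies below 0 in both stage comparisons, and all Hbegf points are open.

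The rest of the pathway was described with 5 lists of 90 genes, of which 89 had a probe and 71 were detected in at least 1 group. In EH against EL 18 were higher and 5 lower, and in PH against PL 21 were higher and 5 lower, beside the shares of all gene names given above. In a fit of the 22247 probes detected in at least 1 group, 2680 were higher and 2741 lower in EH against EL. For PH against PL that fit gave 3759 higher and 3398 lower. The median log2 fold-change of the 89 genes was 0.07 and 0.09, and that of all gene names -0.03 and -0.01. The interaction was past the test for 4 of them, among them Dusp4, Jun and Myc, against 4.30% of all gene names. The value of Dusp4 rests on PL signals that were not well above background on any microarray, and so is not a measured difference between the stages.

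Of the 7 other ERBB ligands Egf alone was detected. It was 58.3 ± 4.28 in EH against 26.3 ± 3.58 in EL and 140.5 ± 9.89 in PH against 90.5 ± 18.3 in PL, higher in the ITGA6-high fraction at both stages (2.23-fold and 1.57-fold, limma, adjusted p = 8.40e-05 and 0.00482). Btc passed the test as lower in EH but was not well above background on any microarray of EL or EH.

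Of the 11 genes for ligand processing 5 were higher and 1 lower in EH, and 5 higher and 0 lower in PH. Timp3, an inhibitor of the ADAM proteases that shed ligands, was 2.48-fold higher in EH than in EL and 3.21-fold higher in PH than in PL (adjusted p = 5.00e-05 and 2.45e-06). Cd9, a tetraspanin that associates with HB-EGF, was 2.22-fold and 1.61-fold higher, and Adam19, a protease of the ADAM family, 1.48-fold and 2.18-fold. Of the 14 receptor regulators 1 was lower in EH, the chaperone Hsp90aa1 by 1.29-fold (adjusted p = 0.000624). In PH 2 were higher, Rnf41, a ubiquitin ligase for ERBB-3, 1.503-fold and the chaperone partner Cdc37 1.28-fold.

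Of the 40 adaptors and effectors with a probe 3 passed the test with a higher signal in EH and 2 with a lower one, and 35 did not pass. In PH against PL the counts were 6 higher, 2 lower and 32 not past the test. The PI3K subunit Pik3r3 was lower in the ITGA6-high fraction at both stages (log2 fold-change -0.28 and -0.53, limma, adjusted p = 0.0212 and 9.96e-05). Stat5b was higher in the ITGA6-high fraction at both stages, 2.03-fold and 1.88-fold (limma, adjusted p = 2.22e-06 and 2.71e-06). Stat5a was 1.96-fold higher in EH than in EL (adjusted p = 0.0002) and also higher in PH than in PL (log2 fold-change 0.47, adjusted p = 0.0265). Pak1 passed the test as higher in EH (43.6 against 17.4, limma, adjusted p = 0.0117). Since only 2 of 4 EL microarrays were well above background, no fold is given. At P2 the PI3K subunit Pik3r1 was 1.63-fold higher in PH than in PL (adjusted p = 0.00315).

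Of the 17 transcriptional targets and feedback regulators 9 were higher and 0 lower in EH, and 7 higher and 3 lower in PH. The ETS factor Etv1 was 6.53-fold higher in EH, at 3438 ± 143 against 527 ± 12.5 (limma, adjusted p = 3.44e-07), and 4.65-fold higher in PH, at 2585 ± 239 against 577 ± 200 (adjusted p = 6.90e-07). Etv5 was 4.17-fold higher in EH than in EL (adjusted p = 8.30e-06). The MAPK phosphatase Dusp6 was 2.38-fold higher in EH and 4.09-fold higher in PH (adjusted p = 0.000113 and 6.30e-07). Its relative Dusp4 was detected in PH and on 0 microarrays of PL, at least 2.11-fold higher (means 44.3 and 4.99, adjusted p = 1.35e-05). Jun and Myc, early response genes, were higher in EH than in EL and lower in PH than in PL, with interactions past the test. Fos was also higher in EH (adjusted p = 0.0321) but did not pass at P2 (adjusted p = 0.891). Egr1 passed at neither stage (adjusted p = 0.277 and 0.700). The interactions of Fos and Egr1 did not pass (adjusted p = 0.147 and 0.381). The log2 fold-change of Jun was 0.93 at E15.5 and -0.54 at P2, and Myc was well above background on 3 microarrays of PL and 2 of PH. The endothelial and leukocyte markers given above also differed between EH and EL, and their part in these values was not tested.

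**Figure D5:**
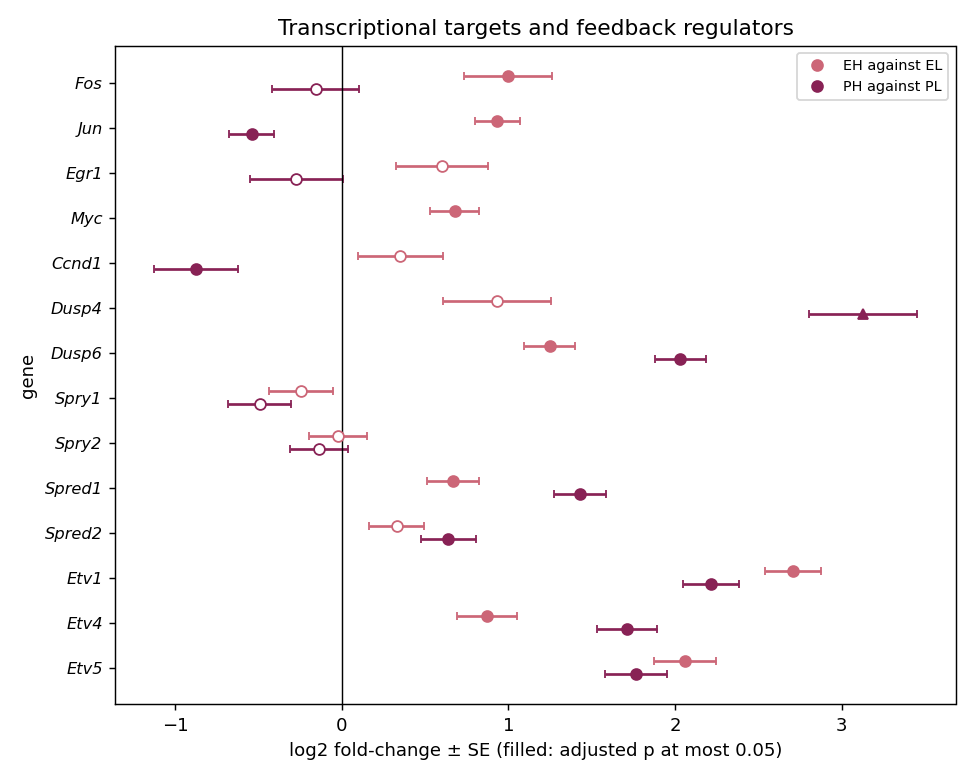
Log2 fold-change ± SE of the transcriptional targets and feedback regulators that were detected in at least 1 group compared. There are 14 for EH against EL and 13 for PH against PL, where Myc is not drawn. Filled points have an adjusted p of at most 0.05. A triangle marks a dimmer group not well above background on any microarray (a fitted value, not a fold). Etv1, Etv5 and Dusp6 lie above 1 at both stages, and Jun is on opposite sides of 0.

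Over the 16 microarrays, the gene names whose log2 signals ran most like those of Erbb4 were Tmem163, DXBay18 and Ptrf (Pearson r = 0.984, 0.981 and 0.981), among 21393 probes searched. For Erbb2 they were NAP111411-1, Loxl3 and Rps6 (r = 0.981, 0.980 and 0.979), for Nrg2 Slc26a11, AB041803 and Dusp14 (r = 0.949, 0.946 and 0.945), and for Hbegf Lypla2, Cfhr2 and Dcpp1 (r = 0.841, 0.807 and 0.791). The 16 points share 4 group means, so that any gene with the same order of groups has a high r.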

How the data were processed

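RNA of 16 samples was amplified by the authors and hybridised on one-colour Agilent 8x60K microarrays. Per the file headers, the deposited processed signal intensities were extracted with Feature Extraction 10.7.3.1, with the background subtracted. The deposited log2 values are the authors' quantile-normalized signals. They correlated with those recomputed here with r = 1.00 and served as an alternative. Control and outlier spots were left out and spots of a probe averaged. A probe with several spots was well above background when the majority of them were. Signals were quantile normalized and log2 transformed, and limma 3.58.1 (R 4.3.3) was used to fit 1 mean per group to 55681 probes over 16 microarrays, two-sided, with Benjamini-Hochberg adjustment. Past the test means an adjusted p of at most 0.05. Depth has no meaning for microarrays; 4 per group limit the precision. On simulated data with a log2 SD of 0.3 for every probe, the EH against EL test found 76 of 100 probes changed 2-fold. It found 100 of 100 changed 4-fold, and the interaction 29 of 200 and 198 of 200. The changed probes were drawn from the brighter ones only, so these shares do not apply to dim probes such as those of Nrg1 and Nrg2.

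Values are given for every member probe, and for up to 3 genes per pathway list with the largest change past the test that were detected in the brighter group. Btc, Pik3r3, Stat5a at P2, Jun, Myc, Fos, Egr1, Itga6 and the marker genes singled out were added after their values were seen. Some items that these rules name are not reported here. Members and lists were chosen with earlier results of these data known. EL and EH share their sample numbers, as do PL and PH. The labels do not say that equal numbers mean the same pool of hearts. Between deviations from group means of samples with equal numbers, r was 0.256, 0.189, 0.450 and 0.379 at E15.5. At P2 it was 0.375, 0.176, -0.03 and 0.542. Samples with unequal numbers were not correlated for comparison, so these values do not settle whether samples are paired. E15.5 microarrays lay on slides 1 and 3, P2 microarrays on slide 2. Python 3.11.15, pandas 2.3.3, numpy 2.4.6, scipy 1.17.1 and matplotlib 3.10.9 were used.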

Additional observations from a re-analysis of the deposited data

Results flagged for a closer look

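Of 17 groups of 4 microarrays with at least 1 well above background, 1 held a sample far from the others. That sample was also the single one of its group above background, so the group was counted because of it. Nrg4 (A_55_P2115330) was 18.2 in EH sample 6, and the next EH sample was at 4.07. The ITGA6-high against ITGA6-low difference of Erbb4 differed between the stages, by 0.89 on the log2 scale (A_55_P2119892, limma interaction, adjusted p = 0.000998). It ranged from 0.83 to 0.94 over 23 alternatives, all past the test.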

How the results depend on the processing

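Of 407 values of the Erbb2, Hbegf, Nrg1, brighter Erbb4 and brighter Nrg2 probes under alternatives, in the comparisons where at least 3 microarrays of a group measured them, 390 kept their direction and their side of the threshold. Member probes past the test in EH against EL were 2, and 4 with normexp, 10 with a floor, 0 within slide 1, 0 within slide 3, 0 at 3-fold, and 3 over the groups compared alone or without EH sample 3. Slide 3, with 1 EH microarray, called 0 of all probes, and slide 1 called 878 higher and 685 lower. In PH against PL they were 4, and 2 at 3-fold, 5 with normexp or without PH sample 5, and 3 over detected probes, with a floor or counting detected members. The interaction gave 1, and 0 at 3-fold. PL against EL gave 2, and 1 over detected probes, with a floor, at 3-fold or counting detected members, and 3 without EL sample 6 or without PL sample 2. PH against EH gave 5, and 3 with normexp, 2 over detected probes, 12 with a floor, 1 at 3-fold, 2 counting detected members, 6 without PH sample 5 and 4 at an adjusted p of at most 0.01. With the floor, dim probes take the floor's own difference, 8.62 to 14.3 in EH against 14.2 to 17.8 in EL and 14.6 to 20.9 in PH. The replicate block gave 2, 4, 1, 2 and 5 in the same order of comparisons and changed no call of a detected probe. The 3-fold limit outside the interaction and the count of detected members were chosen after seeing the data. Values that changed sign lay near 0. Hbegf in EH against EL was -0.0375 scaled to the 75th percentile, -0.0691 within slide 1 and from -0.0002 (without EL sample 3) to 0.0778 when 1 sample was left out, and Erbb4 in PL against EL ranged from -0.0329 to 0.0805 when 1 sample was left out (-0.0063 without PL sample 4). Scaling to the 75th percentile moved the median of all probes to -0.18 in EH against EL and -0.14 in PH against PL. The causes were not tested.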
